A study of Mus musculus with 6 samples.

Results

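The 50 bp windows described here are those of 2 large olfactory receptor clusters of the mouse genome in a methylated DNA capture experiment on microglia. They were chosen by position alone, as all windows at chr2:85200001-90400000 and chr7:104000001-108700000 (mm10), and they number 5708 of the 2915907 windows that had a value in at least 1 library. The chromosome 2 cluster spans 5.2 Mb and holds 2460 of them, and the chromosome 7 cluster spans 4.7 Mb and holds 3248. By library, windows with a value in the clusters numbered 3048 in naive replicate 1, 4671 in naive replicate 2, 3654 in peak replicate 1 and 3176 in peak replicate 2. Without naive replicate 2, 1499 windows of the chromosome 2 cluster and 2492 of the chromosome 7 cluster had a value.

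Microglia, the resident macrophages of the central nervous system, were sorted on F4/80 and CD45 from pooled brains and spinal cords of 30 mice per condition. All mice were of C57Bl/6 background and carried Ccr2rfp/+ and Cx3cr1gfp/+, so that in both conditions 1 copy of each receptor gene was replaced by a reporter. Naive mice were taken before induction, and peak mice at the height of experimental autoimmune encephalomyelitis (EAE), which was induced at 24 to 28 weeks of age with the myelin oligodendrocyte glycoprotein peptide of residues 35 to 55. The age of the naive mice is not given in the labels. Methylated fragments were pulled down with a methyl-CpG binding domain and sequenced (MiGS) in 2 biological replicates per condition, and RNA from the same extractions was sequenced in 1 library per condition. Whether the MiGS replicates came from separate groups of mice is not stated, and p-values therefore describe no more than the spread among the 4 libraries, which may be technical.

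Olfactory receptors are G protein-coupled receptors of the sensory neurons of the nose, and they form the largest gene family of the mouse genome. Each mature olfactory neuron is known to express 1 allele of 1 receptor gene, while the rest of the family stays silent under heterochromatin marks. The genes sit in tandem clusters in AT-rich, CG-poor DNA, have a coding region in a single exon, and are silent in most cells outside the nose. The capture can recover only methylated CG dinucleotides, so a stretch with few of them gives few fragments whatever its methylation. CG dinucleotides were counted here at gene starts alone, and the part of CG content in the capture of windows and bins was not tested.

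The CG content of the gene starts is shown here by 6 RefSeq sequences (GRCm38.p6, the build of the files), 5 of receptors and 1 of another gene in the chromosome 7 cluster, with every CG in capitals. Each receptor sequence runs 5′ to 3′ from 250 bases before the annotated start to 50 bases after it. Olfr1255 at chr2:89816078-89816377 (plus strand) and Olfr1212 at chr2:88958218-88958517 (plus strand) had the highest mean captured signal of the chromosome 2 start regions, and Olfr713 at chr7:107035886-107036185 (plus strand) that of chromosome 7. The rank of Olfr1255 came from 1 library: it had 3 and 18 reads in naive replicates 1 and 2 and 0 in both peak replicates, and without naive replicate 2 it came after Olfr1212 and Olfr1026. Olfr681 at chr7:105121209-105121508 (plus strand) had, together with Olfr688, the most CG dinucleotides of the chromosome 7 start regions without reads, and Olfr691 at chr7:105337665-105337964 (minus strand) belongs to the receptor with the highest signal over its gene. Rbmxl2 at chr7:107209195-107209444 (plus strand), an RNA-binding protein gene of the RBMX family, is shown by the 250 bases before its start for contrast.
Olfr1255: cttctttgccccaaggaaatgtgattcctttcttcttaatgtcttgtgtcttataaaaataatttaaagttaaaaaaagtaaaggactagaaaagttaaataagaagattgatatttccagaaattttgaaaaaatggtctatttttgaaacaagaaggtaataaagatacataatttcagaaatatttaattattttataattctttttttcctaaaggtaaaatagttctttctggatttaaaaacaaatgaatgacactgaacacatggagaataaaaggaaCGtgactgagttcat
Olfr1212: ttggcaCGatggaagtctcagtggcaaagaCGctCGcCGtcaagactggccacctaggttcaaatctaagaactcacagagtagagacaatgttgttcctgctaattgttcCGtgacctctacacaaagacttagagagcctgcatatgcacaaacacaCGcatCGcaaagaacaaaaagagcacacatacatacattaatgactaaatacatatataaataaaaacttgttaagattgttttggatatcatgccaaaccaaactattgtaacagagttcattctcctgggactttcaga
Olfr713: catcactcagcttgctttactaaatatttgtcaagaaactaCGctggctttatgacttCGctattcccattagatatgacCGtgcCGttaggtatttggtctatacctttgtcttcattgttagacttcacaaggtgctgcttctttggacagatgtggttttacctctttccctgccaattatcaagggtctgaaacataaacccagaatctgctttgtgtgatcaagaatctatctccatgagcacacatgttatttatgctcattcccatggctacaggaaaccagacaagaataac
Olfr681: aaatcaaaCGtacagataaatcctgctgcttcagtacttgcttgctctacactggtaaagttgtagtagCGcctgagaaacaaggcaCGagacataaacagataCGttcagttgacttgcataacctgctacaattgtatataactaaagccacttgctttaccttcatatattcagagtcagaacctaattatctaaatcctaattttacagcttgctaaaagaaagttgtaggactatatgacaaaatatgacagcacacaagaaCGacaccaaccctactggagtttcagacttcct
Olfr691: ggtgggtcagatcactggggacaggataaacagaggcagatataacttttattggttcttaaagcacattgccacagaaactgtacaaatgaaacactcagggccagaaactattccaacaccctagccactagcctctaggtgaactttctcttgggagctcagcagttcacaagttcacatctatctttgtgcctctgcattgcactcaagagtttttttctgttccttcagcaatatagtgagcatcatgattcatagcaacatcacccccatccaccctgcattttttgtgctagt
Rbmxl2: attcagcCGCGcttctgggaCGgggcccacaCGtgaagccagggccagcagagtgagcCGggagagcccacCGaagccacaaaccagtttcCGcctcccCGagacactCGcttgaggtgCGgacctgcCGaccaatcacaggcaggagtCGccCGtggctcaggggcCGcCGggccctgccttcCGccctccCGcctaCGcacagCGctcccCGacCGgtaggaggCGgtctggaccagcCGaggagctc

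Olfr691 held 0 CG dinucleotides in its 300 bases, Olfr1255 1, Olfr713 4, Olfr681 5 and Olfr1212 7, against 23 in the 250 bases before Rbmxl2. Over all receptor genes of the clusters with a start region in the RefSeq table (185 of 221 on chromosome 2 and 94 of 106 on chromosome 7), the median was 1 CG per 300 bases in each cluster. It was also 1 over the 659 receptor start regions elsewhere on chromosomes 1 to 19, and 16 over 15197 start regions of other protein-coding genes. No CG at all was present in 36.2% of the chromosome 2 and 38.3% of the chromosome 7 receptor start regions, in 32.3% of those elsewhere and in 2.78% of the other genes. The median G and C content was 32.0% and 36.3% in the clusters and 58.0% in other genes. Most receptor gene models are under 1100 bp long (183 of 221 and 90 of 106), so their annotated start is largely the start of the coding region and not a mapped transcription start.

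**Figure D1:**
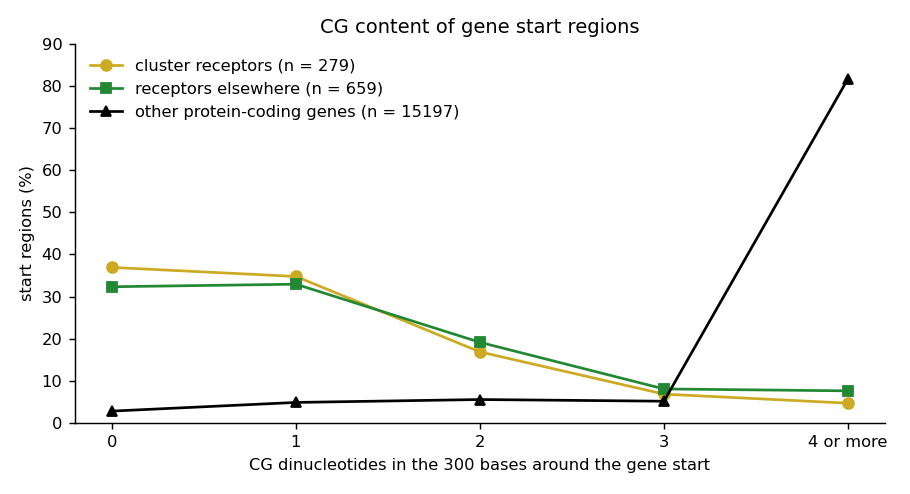
Share of start regions (vertical axis, percent) by the number of CG dinucleotides in 300 bases (horizontal axis), for receptor genes of both clusters, receptor genes elsewhere and other protein-coding genes. Receptor start regions lie mostly at 0 or 1 CG, with 4 or more in 4.66% of the cluster receptors against 81.7% of other genes.

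Few receptor start regions had a window with a value in any library. Reads were present in 9 of 185 on chromosome 2 (4.86%) and in 2 of 94 on chromosome 7 (2.13%), against 6.68% of receptor start regions elsewhere and 13.5% of those of other genes. Most of the cluster regions had reads in naive replicate 2 alone: without it 3 of 185 (1.62%) and 1 of 94 (1.06%) had reads, against 4.55% elsewhere and 12.2% of other genes. Among cluster receptors with 4 or more CG dinucleotides, 2 of 13 had reads, namely Olfr1212 and Olfr713, and both had reads in all 4 libraries. Olfr1212 had 6, 2, 8 and 4 reads in naive replicates 1 and 2 and peak replicates 1 and 2. Olfr713 had 3, 14, 8 and 2 reads in the same order. Among the 103 cluster receptors with no CG in this region, 3 had reads, in naive replicate 2 alone. Of the 2058 captured start regions among other genes, 1841 held 4 or more CG dinucleotides, where 14.8% of regions had reads, and 2.84% of the 422 without a CG did. Without naive replicate 2 these shares were 13.6% and 1.42%.

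The deposited MiGS values are reads divided by 1 factor per library, and 1 read was worth 1.14 and 1.16 in naive replicates 1 and 2 and 0.828 and 0.816 in peak replicates 1 and 2. Reads summed over windows ranged from 16116034 to 22991723 per library outside the 100 kb from chr2:98600001, an interval of extreme pile-ups that was left out throughout. A window is listed only where at least 1 library reached a minimum, which was 3 reads in naive replicate 2 and 4 reads in each of the others. A window listed nowhere was taken as 0 and can therefore hold up to 3 reads, or 2 in naive replicate 2. A fragment counts in every window it covers, so reads summed over windows exceed the number of fragments. Naive replicate 2 stands apart: of all windows, 384271 had reads in that library alone, against 4182 to 171136 for the other libraries. Values are therefore given by library, and several of the pooled counts, ranks and differences that it moves by over 1.5 times are given without it too. All 9 microglial markers were detected in the RNA libraries, with 1266753 naive and 947677 peak counts in sum.

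Both receptor clusters held fewer captured windows than the rest of their chromosomes in each of the 4 libraries. On chromosome 2, the cluster had 205 windows per Mb in naive replicate 1, 405 in naive replicate 2, 253 in peak replicate 1 and 219 in peak replicate 2. The rest of chromosome 2 had 791, 836, 1001 and 823 windows per Mb in the same order. The 2 ranges do not overlap, and the rest was 3.86, 2.06, 3.96 and 3.75 times higher. The mean log2 ratio of cluster to rest was -1.72 ± 0.45 (SD, n = 4 libraries), with an exact paired sign-flip p of 0.13, two-sided, the smallest that 4 libraries allow. Without naive replicate 2 it was -1.95.

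The chromosome 7 cluster was depleted less. It had 422, 546, 498 and 433 windows per Mb in naive replicates 1 and 2 and peak replicates 1 and 2, and the rest of chromosome 7 had 760, 805, 944 and 790. The rest was thus 1.80, 1.48, 1.90 and 1.83 times higher, and again the ranges do not overlap. The mean log2 ratio was -0.80 ± 0.16 (SD, n = 4), with an exact paired p of 0.13. Adjustment over the 6 comparisons of a cluster with its chromosome left p at 0.13.

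**Figure D2:**
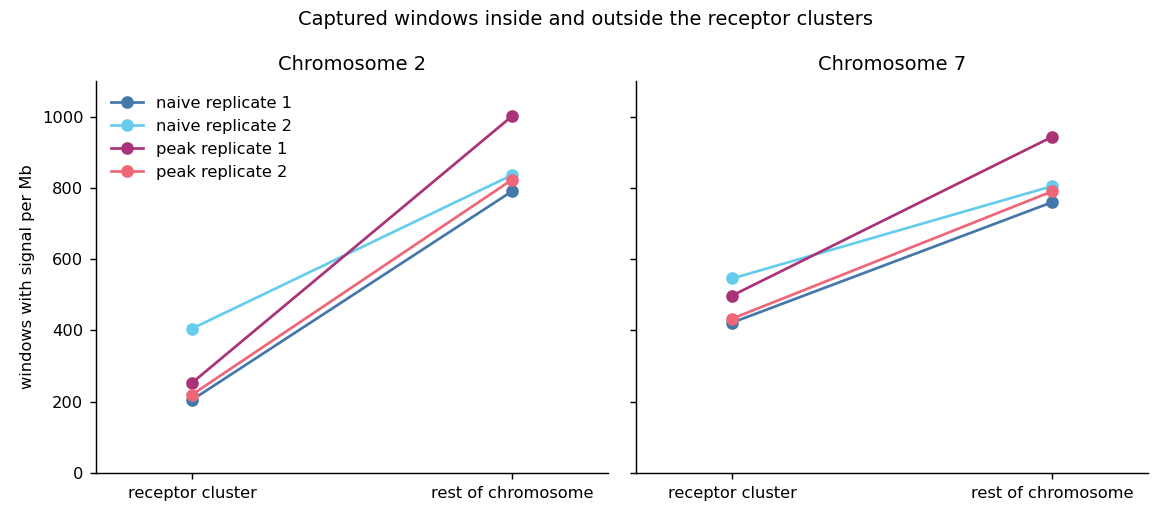
Windows with signal per Mb (vertical axis) in each receptor cluster and in the rest of its chromosome, 1 line per library. In both panels each line rises from the cluster to the rest, from 205 to 405 up to 791 to 1001 on chromosome 2 and from 422 to 546 up to 760 to 944 on chromosome 7.

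Summed signal gave the same order. On chromosome 2 it was 1470, 3404, 1333 and 1474 per Mb in the cluster against 6132, 9273, 6439 and 6291 in the rest, a mean log2 ratio of -1.97 ± 0.36 (SD, n = 4; exact paired p = 0.13). On chromosome 7 it was 3508, 6120, 3126 and 3667 per Mb against 6345, 10530, 6103 and 6699, a mean log2 ratio of -0.87 ± 0.07 (SD, n = 4; exact paired p = 0.13). With windows of at least 5 reads, a bar above every library's listing minimum, chromosome 2 had 93.1, 114, 138 and 111 windows per Mb in the cluster against 351, 305, 680 and 423 outside it. With that bar the chromosome 7 cluster had 204, 198, 324 and 254 against 357, 317, 641 and 429.

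The clusters differed from the rest mainly in the number of captured places, less in what each of them held. Runs of adjoining windows numbered 50, 112, 65.4 and 53.7 per Mb in the chromosome 2 cluster and 183, 211, 234 and 189 in the rest of that chromosome. A run had a median of 3 to 4 windows in the cluster and 4 outside it. The longest run of the chromosome 2 cluster in any 1 library was 14 windows (700 bp), against 56 to 73 windows in the rest. That of the chromosome 7 cluster was 35 windows (1750 bp), against 46 to 57 in the rest. A longest run is a maximum over all runs of a library. The rest of chromosome 2 held 31781 to 40593 runs per library, and its cluster 260 to 580. The longest runs are therefore not compared at like numbers of runs. The mean value of a captured window was 7.18, 8.40, 5.28 and 6.72 in the chromosome 2 cluster and 7.75, 11.1, 6.43 and 7.64 in the rest. On chromosome 7 it was 8.31, 11.2, 6.28 and 8.47 against 8.35, 13.1, 6.47 and 8.47.

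Cluster windows were shared by fewer libraries. Of the chromosome 2 cluster windows 30.9% had a value in all 4 libraries, against 43.4% in the rest, and on chromosome 7 the shares were 42.9% and 46.0%. Windows present in naive replicate 2 alone made up 39.1% of the chromosome 2 cluster against 13.2% of its rest, and 23.3% of the chromosome 7 cluster against 13.1%. The lower listing minimum of that library, 3 reads, goes with these shares, and its part in them was not tested.

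Within the clusters the capture differed widely between 100 kb bins. Every one of the 52 bins of the chromosome 2 cluster lay below the median bin of the rest of chromosome 2 in naive replicate 1 and in both peak libraries, and 48 did in naive replicate 2. On chromosome 7, 34 to 36 of 47 bins lay below the median of the rest. By signal the highest bin was chr7:105700001-105800000, which holds 6 protein-coding genes and no receptor, with 201, 184, 227 and 200 windows. The next was chr7:105400001-105500000, with 110, 141, 126 and 114 windows and 4 genes that are no receptors. Low bins also lay among those without a receptor: chr7:106100001-106200000 had no value in any library, chr7:106000001-106100000 had 3 windows in each, and chr7:105800001-105900000, with 2 other genes, had 2, 3, 6 and 6.

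On chromosome 2 the bins with the highest mean signal were chr2:89800001-89900000, at 414, 1166, 239 and 428, and chr2:90300001-90400000, at 233, 1167, 319 and 364. Both hold receptor genes alone, and naive replicate 2 set their rank. Over the other 3 libraries chr2:89900001-90000000 (456, 344 and 387) and chr2:86600001-86700000 (425, 344 and 381) were highest, also with receptor genes alone. The lowest mean signal was that of chr2:89200001-89300000, at 35.2, 84.8, 5.80 and 3.27, and of chr2:88800001-88900000, at 3.41, 101, 29.0 and 0. Without naive replicate 2 the lowest was chr2:85800001-85900000, at 5.68, 1.66 and 6.53, against 158 in that library. Across bins the order of signal was shared between libraries, with Spearman coefficients of 0.80 to 0.98 over the 52 bins of chromosome 2 and 0.69 to 0.93 over the 47 of chromosome 7. These coefficients describe bins that share sequence, gene content and libraries.

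**Figure D3:**
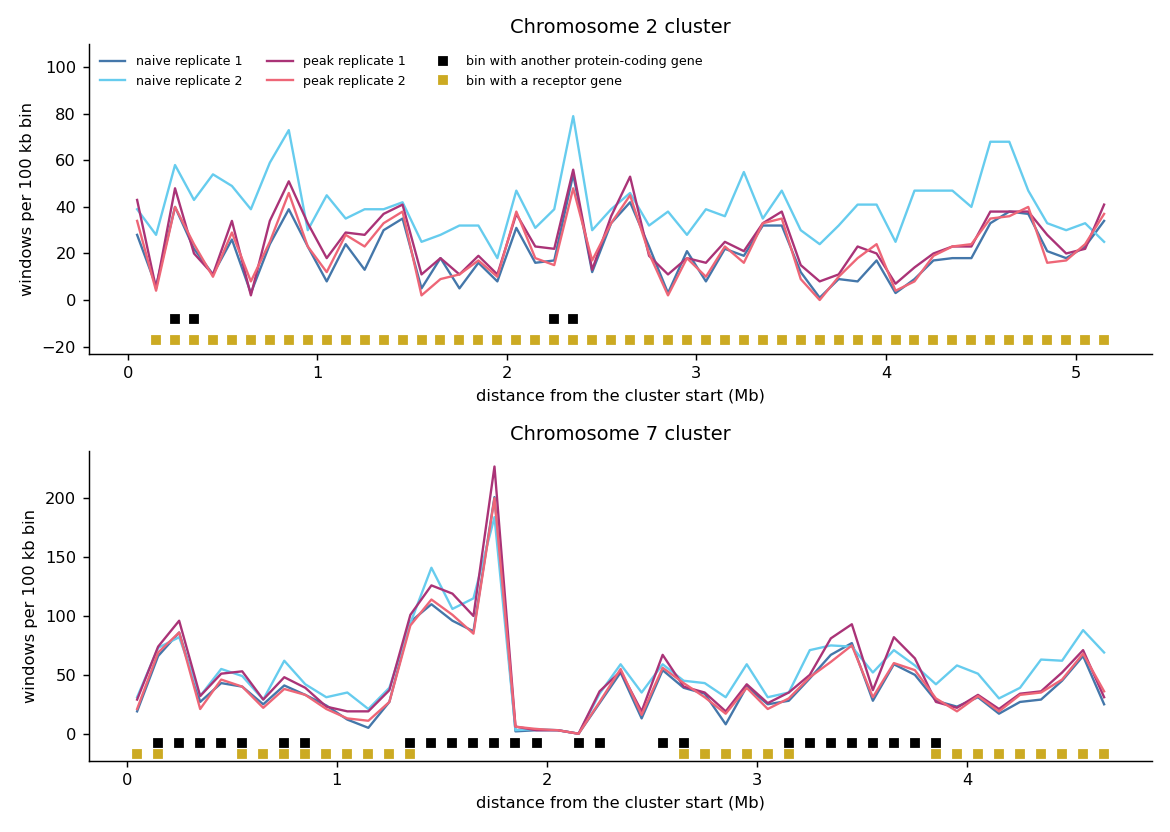
Windows with signal per 100 kb bin (vertical axis) against the distance from the start of each cluster in Mb (horizontal axis), 1 line per library, with squares under the lines for bins that hold a receptor gene or another protein-coding gene. The chromosome 7 lines peak at 184 to 227 windows in a bin with 6 other genes and fall to 0 in a later bin, and on chromosome 2 naive replicate 2 lies above the other libraries in most bins.

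The longest stretches without a value in any library were on chromosome 7, where chr7:106045701-106201200 (155.5 kb) was empty. It overlaps Gvin1, a large interferon-inducible GTPase gene, and predicted genes of its family (named here after their values were seen). On chromosome 2 the longest was chr2:90148801-90248850 (100.05 kb), with the receptor genes Olfr32, Olfr1270 and Olfr1506. These genes belong to families of close copies, and no source says how reads that match several copies were assigned, so an empty stretch is no measure of its methylation.

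Bins that hold receptor genes and no other protein-coding gene were then compared with other classes of bin in the same library. The 47 such bins of the chromosome 2 cluster had a mean of 192, 393, 239 and 209 windows per Mb, and the 18 of the chromosome 7 cluster 268, 450, 321 and 284. The 21 chromosome 7 bins without a receptor gene had 539, 625, 640 and 547, and 15207 bins elsewhere with other protein-coding genes 1023, 1018, 1281 and 1059. Receptor bins thus lay below the receptor-free bins of the same cluster in 4 of 4 libraries, by 1.81-fold (mean log2 ratio -0.86 ± 0.26, SD, n = 4; exact paired p = 0.13).

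Low capture was also seen in bins of 3 other classes. Bins without any gene, 3614 in number, had 313, 476, 395 and 327 windows per Mb. The 159 bins with receptor genes elsewhere had 319, 477, 376 and 329, and 192 bins with vomeronasal receptor genes, a separate family of pheromone receptors, had 300, 408, 344 and 312. The chromosome 2 receptor bins were below gene-free bins by 1.5-fold, below receptor bins elsewhere by 1.49-fold and below vomeronasal bins by 1.37-fold, in 4 of 4 libraries each (exact paired p = 0.13). For the chromosome 7 receptor bins these folds were 1.15, 1.14 and 1.05, and the last was lower in 3 of 4 libraries (exact paired p = 0.5), with a mean log2 ratio of -0.13 without naive replicate 2. Over the 12 comparisons of bin classes the adjusted p was 0.14 for those at 0.13 and 0.5 for the last.

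**Figure D4:**
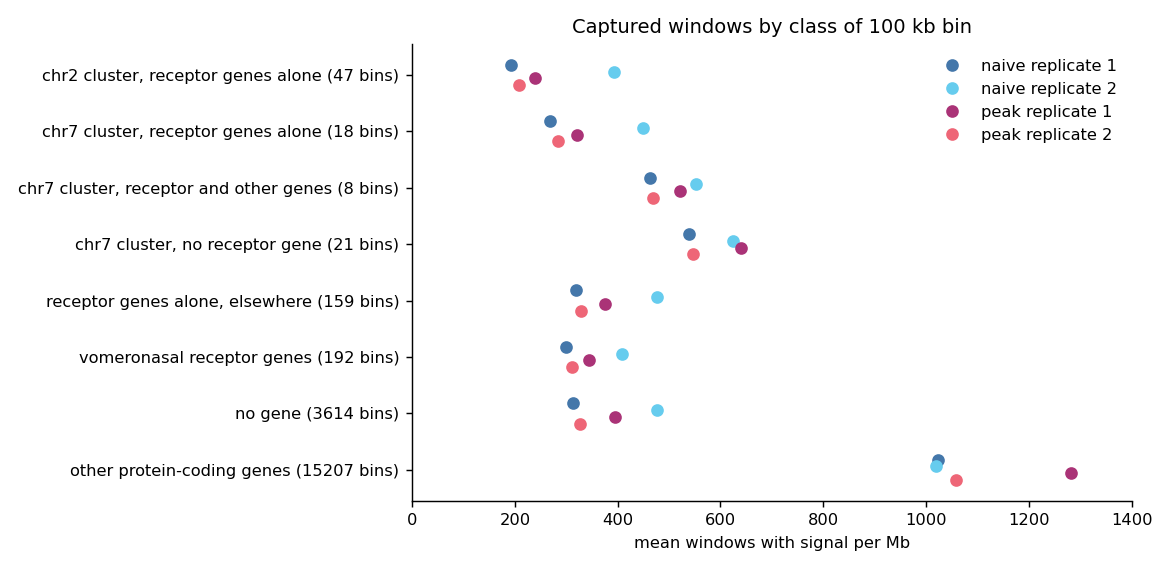
Mean windows with signal per Mb (horizontal axis) for classes of 100 kb bins (rows, with the number of bins), 1 point per library. Receptor bins of the chromosome 2 cluster lie at 192 to 393, near gene-free bins at 313 to 476 and far below bins of other protein-coding genes at 1018 to 1281.

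At the scale of genes, the clusters differed from each other. On chromosome 2, windows inside receptor gene models numbered 90.5, 290, 163 and 122 per Mb, in the 1000 bp on both sides 93.8, 445, 123 and 122, and between genes 222, 406, 270 and 233. Receptor genes were thus captured less than the DNA between them in each library. On chromosome 7, receptor gene models had 462, 554, 568 and 490 windows per Mb, their flanks 135, 401, 202 and 135, and the DNA between genes 278, 432, 331 and 295. Here the density pooled over receptor genes was above that of the intergenic DNA in each library. It was below the 802, 839, 927 and 795 windows per Mb inside other protein-coding genes of the cluster. The median receptor gene of this cluster, counted with its flanks, had a signal of 0 in each library. How far single genes set the pooled density was not tested.

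The highest step of the chromosome 7 profile lay downstream of the annotated start. From 500 to 1000 bp after it, the mean over 94 receptor genes was 13.9, 18.7, 11.3 and 12.3 per kb, whereas the 500 bp before the start had 0.0725, 0.840, 0.141 and 0.0347. Olfr691 carried a large part of this: without it the values from 500 to 1000 bp were 7.40, 4.35, 7.55 and 5.18 per kb. Signal was also present upstream, with 3.84, 11.1, 1.73 and 4.17 per kb from -2000 to -1500 bp over all 94 genes. From 500 to 1000 bp after the start, the 185 receptor genes of chromosome 2 had 0.221, 1.03, 1.06 and 0.256 per kb. In that same downstream step the 659 receptor genes elsewhere had 9.34, 12.9, 8.56 and 9.17, and other protein-coding genes 7.90, 12.2, 7.28 and 7.89.

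**Figure D5:**
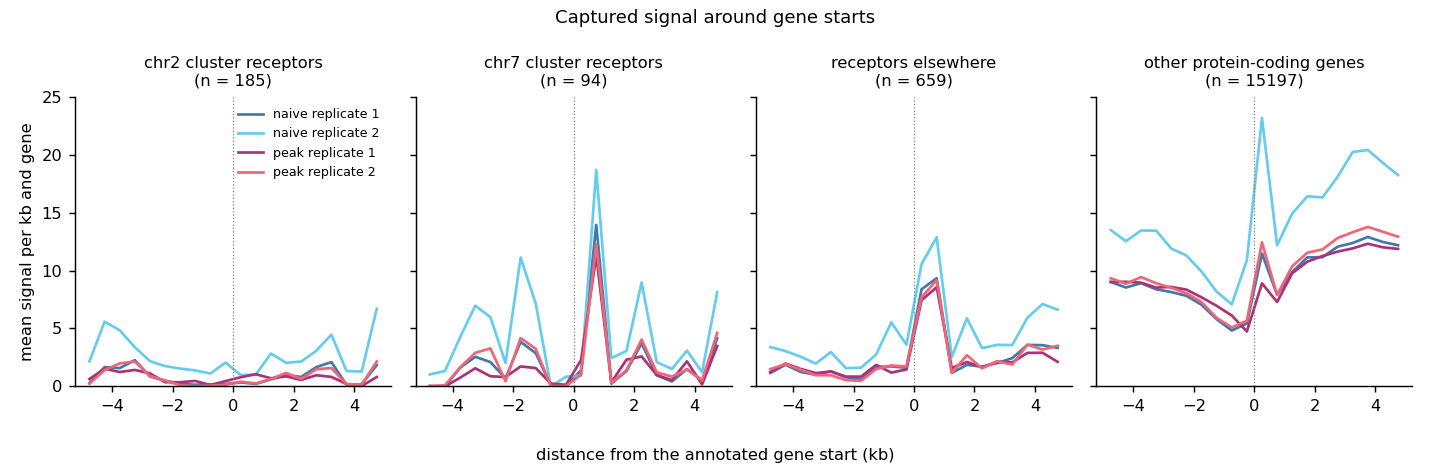
Mean signal per kb and gene (vertical axis) in 500 bp steps against the distance from the annotated gene start (horizontal axis, 5 kb to each side), 1 line per library. Chromosome 7 receptors rise to 11.3 to 18.7 between 500 and 1000 bp after the start, and chromosome 2 receptors stay at or below 1.06 there.

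Most receptor genes had no window with a value in any library. Counting each gene with 1000 bp on both sides, 138 of 221 receptor genes on chromosome 2 (62.4%) and 59 of 106 on chromosome 7 (55.7%) had no value in any library. The share was 56.0% of 777 receptor genes elsewhere, 57.3% of 354 vomeronasal receptor genes and 6.62% of 19158 other protein-coding genes. The last group is not of like length: its median gene model was 19565.5 bp long, against 945 and 951 bp for the cluster receptors. A longer span has more windows that can hold a value, and the part of length in these shares was not tested. Without naive replicate 2 the shares were 76.9% and 67.0% in the clusters, 69.2%, 71.2% and 8.29%. Gene models alone gave 82.8% and 72.6% for the clusters. A value in all 4 libraries was found for 12 receptor genes of the chromosome 2 cluster and 19 of the chromosome 7 cluster.

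The best captured receptor of chromosome 2 was Olfr48 (chr2:89844066-89844971), with a signal of 21.9, 34.0, 21.4 and 19.9 per kb of its span in naive replicates 1 and 2 and peak replicates 1 and 2. Olfr1270 had 22.9, 14.2, 20.9 and 18.9, but its gene model lies in the empty stretch at 90148801 and its reads lie in a flank that it shares with the overlapping gene Olfr32. Olfr1254 had 9.25, 15.8, 10.4 and 15.0, and the pseudogene Olfr1142-ps1 had 8.68, 19.9, 6.94 and 14.9. These spans had reads in every library, and the naive and peak ranges overlapped in each but Olfr48, where both peak libraries lay below both naive ones. The lowest above 0 were Olfr1234, Olfr1213 and Olfr1162, with means of 0.132, 0.240 and 0.281 per kb, and Olfr1234 had reads in naive replicate 2 alone. Without that library Olfr48 and Olfr1270 were again the highest, and Olfr1043, at 8.48, 17.2 and 12.2 in the other 3 libraries, came next.

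On chromosome 7, Olfr691 (chr7:105336746-105337714) stood above all other receptors of both clusters, with 107, 228, 62.5 and 114 per kb and 224 to 583 reads. Its highest window, chr7:105337051-105337100, lies inside the gene and held 49, 150, 34 and 94 reads, while the start region printed above had none in any library. Olfr648 had 23.1, 22.4, 42.1 and 32.6 per kb, so that both peak libraries lay above both naive ones. The pseudogene Olfr471-ps1 had 15.2, 16.7, 10.3 and 24.0, and Olfr649 had 29.0, 9.09, 12.7 and 11.4. Lowest above 0 were Olfr695, Olfr470 and the pseudogene Olfr511-ps1, each with 3 reads, all in naive replicate 2.

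Genes that are no receptors are interspersed on chromosome 7, and the 46 protein-coding ones had a median of 3.69, 2.99, 5.17 and 3.56 per kb, against a median of 0 for the receptor genes of this cluster. The 3 highest of them follow. Rbmxl2 (chr7:107209445-107210916) had 113, 381, 81.3 and 213 per kb, and its CG-rich start region held 79, 150, 76 and 156 reads. Cckbr, a receptor of cholecystokinin and gastrin, had 52.5, 101, 34.1 and 58.0 per kb. Cnga4, a modulatory subunit of the cyclic nucleotide-gated channel of olfactory neurons, had 39.8, 83.6, 33.6 and 47.3, and a window inside it at chr7:105405601-105405650 was among the highest of the cluster, with 47, 174, 23 and 93 reads. Of the 46 other protein-coding genes of this cluster, 4 had no value in any library. Their median gene model was 13204.5 bp long, against 951 bp for the receptor genes of this cluster. The chromosome 2 cluster has 3 other protein-coding genes, of which Fads2b, of the fatty acid desaturase family, had 1.69, 3.75, 2.56 and 1.48 per kb, and Pramel6 and Pramel7 had none.

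The remaining highest windows lay between genes. On chromosome 2 they were chr2:90395151-90395200, with 28, 270, 34 and 76 reads and 5440 bp from Olfr1274, chr2:87872951-87873000, with 46, 186, 26 and 94 reads, and chr2:89876851-89876900, with 37, 123, 19 and 71 reads, 3928 bp from Olfr1257. On chromosome 7, chr7:106662801-106662850 had 34, 217, 21 and 69 reads and lay 14684 bp from Olfr693. In each of these windows naive replicate 2 was the highest library. Without it chr7:106662801-106662850 went from rank 1 to rank 11 of 1035 tested windows, and the windows of chromosome 2 took ranks 3, 1 and 5 of 497.

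Peak EAE was then compared with naive microglia. The signal of the chromosome 2 cluster relative to the rest of its chromosome was -2.06 and -1.45 (log2) for the naive and -2.27 and -2.09 for the peak libraries. Both peak values lay below both naive ones, with a difference of means of -0.43 (naive -1.75 ± 0.43, peak -2.18 ± 0.13, SD, n = 2 each; exact permutation p = 0.333, two-sided, the smallest that 2 against 2 libraries allow). Without naive replicate 2 the difference was -0.12, and without naive replicate 1 it was -0.74. On chromosome 7 the naive values were -0.86 and -0.78 and the peak values -0.97 and -0.87, a difference of -0.10 (exact permutation p = 0.333), which was -0.06 without naive replicate 2 and -0.05 without peak replicate 1. Against the rest of chromosomes 1 to 19 it was -0.18, and with signal capped at 20 per window -0.17, and in both the naive and peak libraries overlapped (exact permutation p = 0.667). By windows per Mb the chromosome 2 libraries overlapped too, at -1.95 and -1.05 for naive and -1.99 and -1.91 for peak (exact permutation p = 0.667). On chromosome 7 these values were -0.85 and -0.56 against -0.92 and -0.87 (exact permutation p = 0.333). Adjusted over 6 comparisons (signal, windows and windows of at least 5 reads per Mb, in each cluster), a p of 0.333 became 0.5. The p of 0.667 for chromosome 2 windows stayed.

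No single window, bin or gene span of the clusters passed the limma test of peak against naive microglia with Benjamini-Hochberg adjustment over all features of chromosomes 1 to 19. The background was 0% as well, for 936715 windows, 23916 bins and 35066 gene spans with at least 20 reads over the 4 libraries. In the clusters 497 and 1035 windows, 52 and 46 bins and 48 and 93 gene spans (chromosomes 2 and 7) reached these reads. At an unadjusted p under 0.05, 28 and 53 cluster windows passed limma, or 5.63% and 5.12%, against a background of 4.57%. For bins it was 2 and 4, or 3.85% and 8.7% (background 4.52%). For gene spans it was 7 and 6, or 14.6% and 6.45% (background 3.68%). edgeR with TMM and DESeq2 also made no call in the clusters after adjustment, with 82 and 50 cluster windows at an unadjusted p under 0.05, or 5.35% and 3.26%, against 5.44% and 3.21% of all windows. For bins these tools gave 8 and 9, or 8.16% and 9.18% (backgrounds 5.41% and 7.1%). For gene spans they gave 3 and 8, or 2.13% and 5.67% (backgrounds 3.43% and 7.98%). The calls depended on 1 library: without naive replicate 1, limma called 71 cluster windows (4.63%, against 3.65% of all) and 24 bins (24.5%, against 17.7%), and without naive replicate 2 it called 2 windows (0.131%, against 0.00352%).

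The order of the libraries was also counted, with no test. Both peak libraries lay below both naive libraries in 140 of 497 chromosome 2 windows (28.2%) and 224 of 1035 chromosome 7 windows (21.6%), against 18.7% of all windows tested. The opposite order was seen in 12.1% and 13.1%, against 16.8%. For bins, both peak libraries lay below in 19 of 52 (36.5%) and 12 of 46 (26.1%), against 18.8%, and above in 0 of 52 and 1 of 46, against 4.02%. For gene spans it was 10 of 48 (20.8%) and 14 of 93 (15.1%) below, against 14.7%, and 3 of 48 (6.25%) and 10 of 93 (10.8%) above, against 14.3%.

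The median bin changed by -0.65 on chromosome 2 and -0.49 on chromosome 7 on the log2(value + 1) scale, against -0.26 for all bins. With quantile normalization in the same model the 3 medians were -0.32, -0.17 and 0.02, and with edgeR and TMM, which also changes the model, -0.48, -0.23 and -0.0034. In each the clusters lay below the median of all bins. The distance depended on naive replicate 2: without it the medians were -0.11, -0.05 and 0.05, and without naive replicate 1 they were -1.36, -0.82 and -0.60. In the RNA of these cells, the summed counts of the 4 monocyte markers (Ccr2, Ly6c2, Fn1 and Hp) were 1377 in the naive and 37487 in the peak library. Most of each sum was Fn1, with 816 and 35840 counts. Ccr2 had 542 and 1059, Ly6c2 5 and 338, and Hp 14 and 250. Of the 5 T cell markers, Cd3e and Cd3g were at 0 in the naive and at 2 and 21 in the peak library. Cd4 had 61 and 152, Thy1 26 and 60, and Il2rb 4 and 63. Summed marker counts were lower in the peak library for astrocytes (5216 naive and 2650 peak) and endothelial cells (2755 and 1309). They were also lower for oligodendrocytes (2465 and 2229) and neurons (344 and 311). In such bulk samples fewer cells of a type and less captured DNA or RNA per cell cannot be told apart, and the part of the cell mixture in the differences was not tested.

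The features with the smallest p show the size of the differences seen. The window with the smallest p among those higher at peak, chr2:88379901-88379950, had 1 and 3 reads in naive and 15 and 19 in peak libraries (log2 difference 2.27 ± 0.70, SE; limma adjusted p = 0.818). A window inside Olfr648 had 3 and 1 against 14 and 14 reads, and one inside Ubqln5, of the ubiquilin family, had 11 and 0 against 19 and 15. The log2 difference of the Ubqln5 window was 0.14 without naive replicate 2 and 3.90 without naive replicate 1, against 2.02 with all libraries. Among windows lower at peak, chr7:104994151-104994200, 1764 bp from Olfr672, had 22 and 50 reads against 3 and 16 (log2 difference -2.48 ± 0.73, SE; limma adjusted p = 0.818). With 1 library left out this difference ran from -3.49 to -1.48. The next, chr2:87526101-87526150 and chr2:87935301-87935350, had 6 and 28 against 2 and 6 reads and 6 and 26 against 2 and 7. Their log2 differences were -2.03 and -1.89 with all libraries. Without naive replicate 2 they were -0.98 and -0.89, and without naive replicate 1 -3.08 and -2.89.

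Among bins, chr7:107900001-108000000, which holds receptor genes alone, had a signal of 270 and 970 for the naive and 118 and 327 for the peak libraries (log2 difference -1.38 ± 0.53, SE; limma adjusted p = 0.951). The difference was -0.46 without naive replicate 2 and -0.65 without peak replicate 1. Without naive replicate 1 it was -2.30, and without peak replicate 2 it was -2.10. The smallest p among bins higher at peak was that of chr7:107700001-107800000, with 218 and 293 against 347 and 297. Among receptor spans, Olfr1267-ps1 had 12 and 25.4 against 4.24 and 5.30 per kb, Olfr472 6.19 and 8.71 against 1.69 and 2.23, and Olfr486 2.31 and 0.394 against 9.84 and 4.16. Olfr1255, whose start region is printed above, had 3 and 41 reads in the naive libraries and 0 in both peak libraries. The adjusted p of each of these 4 spans was 0.954 in limma. Of other genes, Rrp8, Cyb5r2 and Hpx had the smallest p, with log2 differences of 0.51 ± 0.34, 0.78 ± 0.55 and 1.05 ± 0.75 (SE) and adjusted p of 0.954 in limma. That of Hpx ran from 0.04 without naive replicate 2 to 2.05 without naive replicate 1, and was 0.44 without peak replicate 1 and 1.66 without peak replicate 2. That of Cyb5r2 was 0.44 without peak replicate 1.

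Receptor RNA was close to absent in the same cells. Of the 221 receptor genes of the chromosome 2 cluster, 201 were matched by symbol in the RNA table, and 198 of these had 0 counts in both libraries. On chromosome 7, 93 of 106 were matched and 89 had 0 counts in both. The receptor genes together took 52 of 31282093 naive and 30 of 36561934 peak counts on chromosome 2, and 2 and 8 on chromosome 7. A count of 0 limits a gene to 3.69 counts in that library (upper end of the exact 95% Poisson interval, which covers counting error only). Olfr1033 had 29 counts (exact 95% Poisson interval 19.4 to 41.6) in the naive and 25 (16.2 to 36.9) in the peak library, and Olfr1029 had 21 (13.0 to 32.1) and 4 (1.09 to 10.2). No test was possible for these genes with 1 library per condition. Both genes are on chromosome 2, and the highest other count was 3.

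The other genes of the chromosome 7 cluster were mostly expressed. Of 45 matched protein-coding genes 31 had at least 10 counts over both libraries (68.9%, against 73.0% of 18130 other protein-coding genes), and Rrp8, a ribosomal RNA processing gene, had 785 and 675. The best captured of them were not: Rbmxl2 and Cnga4 had 0 counts in both libraries, and Cckbr had 1 and 2. Gvin1, at the empty stretch, had 226 naive and 1190 peak counts. Among olfactory neuron markers, Cnga4, Ano2 and Rtp2 were at 0 in both libraries and Omp had 3 and 0 counts, and the sum of the 9 measured markers, 496 and 1200, was mostly Adcy3, an adenylyl cyclase with 456 and 1154.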

How the data were processed

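The deposited MiGS files give a signal per 50 bp window of mm10. Dividing by 1 factor per library turned 100% of them into whole reads, to within 0.001. The submitters' processing notes name Bowtie2, TopHat, featureCounts and edgeR without role or version. The RNA table holds raw counts per gene per the file headers, with FPKM values of the authors that were not used. Of its 42303 rows, 506 had no symbol and were left out.

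Cluster and rest were compared per library by windows and signal per Mb, with exact paired sign-flip tests over 4 libraries and exact permutation tests of 2 against 2. Windows, 100 kb bins and gene spans (gene and 1000 bp on both sides, RefSeq GRCm38.p6, all of chromosomes 1 to 19) with at least 20 reads over the 4 libraries were tested on log2(value + 1) by limma 3.58.1 (two-sided, trended variance), and p-values were adjusted by Benjamini-Hochberg to a threshold of 0.05. Log2 differences on this scale understate low features. Adjoining windows share fragments and are not independent. edgeR 4.0.16 and DESeq2 1.42.0 on the recovered reads were alternatives, together with R 4.3.3, Python 3.11.15 and scipy 1.17.1. The fits were run on simulated counts with known changes and low spread. No simulated library stood apart as naive replicate 2 does, so these runs do not show what the fits can detect here.

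The members, gene lists and tests were chosen with earlier results of these data known. Named features follow a rule: the 3 highest windows of each cluster and the up to 3 smallest p in each direction, the 2 highest and 2 lowest bins and the smallest p in each direction, the 4 highest and up to 3 lowest receptors above 0 and the smallest p of receptors and of other genes, the 3 highest other genes, and receptors with at least 10 RNA counts. Predicted genes were counted and not named.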

Additional observations from a re-analysis of the deposited data

How the results depend on the processing

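Each log2 ratio of cluster to rest, of receptor bins to other bins and of peak to naive cluster signal kept its sign under each alternative run, and no exact test can pass 0.05 at this number of libraries. The chromosome 2 window ratio ran from -1.95 to -1.63 with 1 library left out, and the chromosome 7 ratio from -0.88 to -0.76. Windows with a value in at least 2 libraries were also counted alone, and 79.6% and 67.9% of cluster receptors had none of these. This alternative was chosen after seeing the data, like gene models alone and counts and ranks without naive replicate 2. The chromosome 2 signal ratio was -5.72 with the pile-up interval in the rest. Calls depended on the settings. With the replicate number as a block, limma called 123 cluster windows (8.03%, against 7.49% of all windows) and 10 gene spans (7.09%, against 6.44%), and edgeR 81 windows (5.29%, against 5.25%), 6 bins (6.12%, against 4.48%) and 3 gene spans (2.13%, against 4.92%). In the blocked limma fit the adjusted p of the window chr7:104994151-104994200 was 3.9e-05, that of chr2:88379901-88379950 0.036, that of Olfr1267-ps1 0.003 and that of Olfr1255 0.04, and in the blocked edgeR fit that of the bin at chr7:107900001 was 0.00096. The labels do not say what the numbers share, and same-number deviations correlated at 0.398 over windows, 0.323 over gene spans and -0.129 over bins, where crossed pairs (chosen after seeing the data) gave 0 calls with both tools. With 1 library left out, calls ran from 0 to 71 windows, reached without naive replicate 1, from 0 to 24 bins, also without it, and stayed at 0 gene spans. A lone library is then assumed to vary like the pair of the other condition. The log2 difference of Fads2b ran from -0.68 to 0.14, and turned positive without naive replicate 2. Receptor genes with RNA numbered 5 at 3 counts and 1 at 50, against 2 at 10. Of cluster windows 20.2% and 31.9% had enough reads to be tested.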

Other observations

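Receptor pseudogenes of the clusters were also sparsely captured. Of 71 receptor pseudogenes on chromosome 2, 48 had no value in any library (67.6%), and of 21 on chromosome 7, 15 had none (71.4%). Without naive replicate 2 the shares were 83.1% and 81.0%. Their mean signal was 0.466, 2.07, 0.652 and 0.538 per kb on chromosome 2 and 0.979, 1.51, 0.824 and 1.38 on chromosome 7, in naive replicates 1 and 2 and peak replicates 1 and 2. None of the 42 and 7 pseudogenes matched in the RNA table had a count.

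Receptor genes elsewhere on chromosomes 1 to 19 had a higher mean signal over their spans, at 4.20, 7.14, 3.86 and 4.20 per kb, than those of chromosome 2, at 0.510, 1.75, 0.693 and 0.448, with the chromosome 7 cluster between them at 2.46, 4.17, 2.56 and 2.25. Without Olfr691 the chromosome 7 values were 1.46, 2.04, 1.99 and 1.19. The median span was at 0 in each of these groups and libraries.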
